A study of Mus musculus with 16 samples.

Results

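Genes of glycolysis, glycogen handling and lactate transport were followed in hamstring muscle of mice with experimental myositis induced by histidyl-tRNA synthetase (HRS). The 38 genes were the rows of the deposited table whose symbol equals one of a written list, out of 26382 genes, and all 38 were found and passed the filter on low values. They comprised 13 isoforms that skeletal muscle fibres use, 15 isoforms of leukocytes and other cells, and 10 genes that serve both. Bulk RNA was sequenced from 16 libraries of 9 female C57BL/6 mice aged 8 to 10 weeks and taken on day 14, with no transgene or deletion named for any group.

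The HRS legs were the 5 left hamstrings of mice m862 to m866, given HRS at 3 to 5 mg/mL. The contralateral PBS legs were the 5 right hamstrings of the same mice, given PBS. The PBS-only group comprised both legs of the 2 mice m867 and m868. The HRS-MBP group was 1 library from each of mice m860 and m861. Their titles name an MBP fusion protein at 2 to 3 mg/mL and no leg, while their treatment field names HRS at 3 to 5 mg/mL. The general protocol describes injection of both sides, whereas the titles place HRS in 1 leg of m862 to m866, and the titles were followed here. Legs of a mouse are not independent animals, so p-values against PBS-only legs rest on 2 control mice.

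Glycolysis splits glucose into pyruvate, and many of its steps are run by isoenzymes from separate genes, with one set used by fast skeletal muscle and another by leukocytes and most other cells. Muscle stores glucose as glycogen, which muscle phosphorylase releases during contraction under the control of phosphorylase kinase. Pyruvate becomes lactate through lactate dehydrogenase, and monocarboxylate transporters carry lactate across the cell membrane.

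Promoter sequences of 4 genes are shown as examples of muscle and other isoforms. *Pgam2* and *Eno3* encode the muscle forms of phosphoglycerate mutase and enolase, *Pgam1* encodes the mutase of other cells and *Hk3* a hexokinase of myeloid cells. Each sequence runs 5′ to 3′ from 250 bases before the transcription start to 50 bases from the start on, from RefSeq (GRCm38.p6). The positions are chr11:5803747-5804046 (minus strand) for *Pgam2*, chr11:70656926-70657225 (plus strand) for *Eno3*, chr19:41911621-41911920 (plus strand) for *Pgam1* and chr13:55021336-55021635 (minus strand) for *Hk3*. Capitals mark matches to CANNTG, the E-box letters bound by myogenic factors among others, which read the same on both strands.
Pgam2: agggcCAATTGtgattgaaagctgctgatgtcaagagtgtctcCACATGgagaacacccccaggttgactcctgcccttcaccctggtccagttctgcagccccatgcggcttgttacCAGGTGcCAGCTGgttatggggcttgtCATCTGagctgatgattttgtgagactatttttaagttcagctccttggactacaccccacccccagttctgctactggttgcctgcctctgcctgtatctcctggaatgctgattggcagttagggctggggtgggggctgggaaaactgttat
Eno3: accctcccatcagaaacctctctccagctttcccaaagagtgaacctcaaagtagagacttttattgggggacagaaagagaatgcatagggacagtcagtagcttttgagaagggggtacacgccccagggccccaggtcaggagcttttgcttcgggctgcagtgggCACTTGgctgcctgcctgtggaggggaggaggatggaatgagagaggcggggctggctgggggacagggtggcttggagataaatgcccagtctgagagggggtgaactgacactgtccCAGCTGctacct
Pgam1: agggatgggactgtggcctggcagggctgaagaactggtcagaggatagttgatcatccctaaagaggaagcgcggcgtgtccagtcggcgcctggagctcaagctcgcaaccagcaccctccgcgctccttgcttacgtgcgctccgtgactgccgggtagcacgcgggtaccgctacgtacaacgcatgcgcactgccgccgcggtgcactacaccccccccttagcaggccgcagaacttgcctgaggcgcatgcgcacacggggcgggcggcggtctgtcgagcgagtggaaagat
Hk3: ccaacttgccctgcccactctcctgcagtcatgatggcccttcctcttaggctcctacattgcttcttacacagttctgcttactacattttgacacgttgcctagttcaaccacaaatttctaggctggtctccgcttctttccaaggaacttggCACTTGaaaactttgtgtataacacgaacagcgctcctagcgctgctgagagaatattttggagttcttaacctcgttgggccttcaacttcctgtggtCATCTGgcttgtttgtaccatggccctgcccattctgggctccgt
The *Pgam2* window held 5 matches to CANNTG and 1 CG dinucleotide, whereas the *Pgam1* window held 0 matches and 30 CG dinucleotides. The *Eno3* window held 2 matches and 3 CG dinucleotides, and the *Hk3* window held 2 and 7. The window of *Hk2*, the muscle partner of *Hk3*, is not shown and held 0 matches and 25 CG dinucleotides. That pair thus went the opposite way to *Pgam2* and *Pgam1*. Windows of *Eno1*, the partner of *Eno3*, held 0 or 2 matches and 14 to 25 CG dinucleotides.

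RefSeq windows were matched by symbol for 36 of the 38 genes, 52 windows in all, and not for *Slc2a3* and *Slc2a4*. Some genes hold several windows, and some of these overlap, as in *Aldoa*, *Pfkm* and *Eno1*. The shares below therefore count windows and not genes, and some sequence is counted more than once. CANNTG lay in 18 of 21 windows of muscle isoforms (85.7%), in 9 of 19 windows of other isoforms (47.4%) and in 10 of 12 windows of genes that serve both, against 72.3% of all 32851 windows. CAGCTG, which is 1 case of CANNTG, lay in 7 muscle windows (33.3%), 0 windows of other isoforms and 4 of the rest, against 16.3% of all windows. ACGTG, the core letters of hypoxia-response elements, counted on both strands, lay in 38.1% of muscle windows, 52.6% of windows of other isoforms and 19.6% of all windows. The median number of CG dinucleotides per window was 9 for muscle isoforms, 20 for other isoforms and 7 for all windows. Such matches describe letters and are not measured binding sites.

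Both libraries of mouse m866 stood apart from their groups. The summed level of 8 macrophage and monocyte markers was 1078 normalized counts in its HRS leg, 2323 to 5358 in the other 4 HRS legs and at most 265 in the 9 PBS libraries. The sum of 8 skeletal muscle fibre markers was 107333 in that leg, 27021 to 64034 in the other 4 HRS legs, 81244 to 129923 in contralateral legs and 41389 to 41625 in HRS-MBP libraries, and every fibre marker was detected in every group. The contralateral leg of m866 had an adipocyte marker sum of 987, against 59.0 to 168 in the other 8 PBS libraries. The sum of 4 fibroblast markers was 1824 to 18133 in HRS legs, lowest in m866, and 827 to 1982 in contralateral legs. Sums of 5 T cell markers were 12.3 to 92.7 against 1.35 to 2.63, and of 5 neutrophil markers 9.90 to 116 against 0.996 to 3.46, both without overlap. Sums of 3 B cell markers were 1.88 to 15.5 against 0.441 to 1.02, also without overlap, while those of 3 adipocyte markers were 10.3 to 124 against 59.0 to 987, with overlap. Implied depth ran from 8.6 to 73.9 M reads, at which 3 reads are worth 0.0324 to 0.364 normalized counts.

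The first comparison asks how HRS-injected legs differed from the PBS-injected legs of the same mice. In the fit without a mouse term, all 13 muscle isoforms fell (median log2 fold change -1.23), while of the 15 isoforms of other cells 9 rose, 4 fell and 2 did not pass the test (median 0.84). Of the 10 genes that serve both, 9 fell and 1 did not pass (median -0.90). With the mouse as a block, which pairs the legs, 8 of the 13 muscle isoforms fell, 6 of the 15 isoforms of other cells rose and 2 fell, and 4 of the 10 genes that serve both fell, where 27.8% of tested genes rose and 16.2% fell. In all, 9 of the 38 genes rose and 26 fell by limma at an adjusted p under 0.05, where 35.1% of the 16414 tested genes rose and 25.9% fell, with a median of 0.08. Beyond a log2 fold change of 1 as well, 5 were higher and 16 lower, against 16.9% and 6.27% of tested genes. With quantile scaling these were 5 and 6 (12.8% and 9.94% of tested genes), and with totals free of mitochondrial genes 7 and 6 (23.9% and 2.28%). In bulk tissue, fewer cells of a type and less RNA per cell cannot be told apart. Marker sums of macrophages, fibroblasts, T cells, B cells, neutrophils, adipocytes and fibres also differed in level between these legs, and their part in these counts was not tested.

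**Figure D1:**
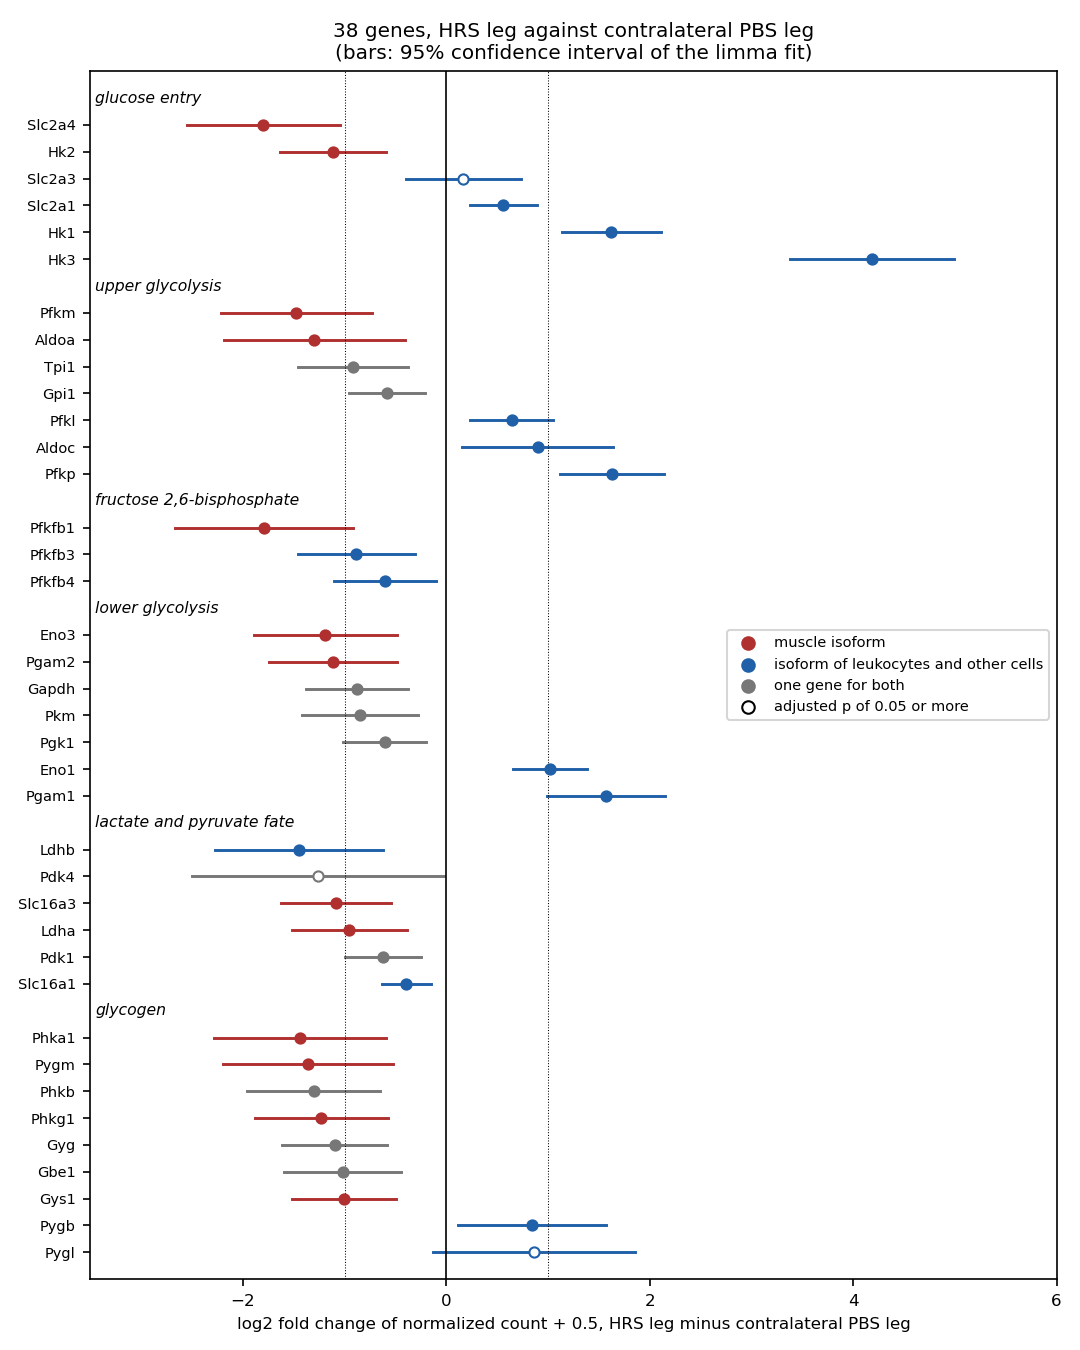
Log2 fold change of each gene (horizontal axis, normalized count plus 0.5) in 5 HRS legs against 5 contralateral PBS legs, grouped by role down the vertical axis; bars are 95% confidence intervals of the limma fit, red marks muscle isoforms, blue isoforms of other cells, grey genes that serve both, and open points an adjusted p of 0.05 or more. The 13 red points lie between -1.80 and -0.95, and *Hk3* lies at 4.19.

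The fall of the muscle isoforms was carried by 4 of the 5 mice. Each of the 13 was lower in the HRS legs of m862 to m865 than in any of the 9 PBS libraries, and each was higher in the HRS leg of m866 than in the contralateral leg of that mouse. With all 5 mice, 0 of the 38 genes were lower without overlap and 4 were higher without overlap (*Slc2a1*, *Hk1*, *Hk3* and *Pfkp*), where 3.19% and 18.3% of tested genes were. Leaving out the HRS leg of m866, 26 lay below and 5 above all 9 PBS libraries, against 20.3% and 31.4% of tested genes. Without that library in the fit 37 of the 38 genes changed, where 68.4% of tested genes did. With the mouse as a block 20 changed (44.0% of tested genes did), 6 upward and 14 downward. Adjusted p-values under the block are given below for the 17 genes whose call it altered.

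Glucose enters muscle through the insulin-responsive transporter *Slc2a4* and many other cells through *Slc2a1* and *Slc2a3*. *Slc2a4* (chr11:69942539-69948188, GRCm38) was at 167, 121, 66.4, 138 and 488 normalized counts in the HRS legs of m862 to m866 and at 647, 500.1, 522, 601 and 459.8 in their contralateral legs. It was low in 4 HRS legs, and that of m866 lay in the PBS range. *Slc2a4* fell 3.48-fold (log2 fold change -1.80 ± 0.36 SE, adjusted p = 0.000853). *Slc2a1* was at 17.2, 24.1, 36.1, 19.5 and 23.0 in HRS legs and at 15.4, 16.2, 14.8, 15.0 and 16.8 in contralateral legs. Every HRS leg lay above every contralateral leg, and *Slc2a1* rose 1.47-fold (adjusted p = 0.00639, and 0.0719 with quantile scaling). *Slc2a3* ranged over 3.37 to 8.00 in HRS legs and 2.37 to 6.47 in contralateral legs, with a log2 fold change of 0.17 (95% confidence interval -0.39 to 0.73, adjusted p = 0.594), whose sign turned with quantile scaling and without mouse m864.

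Hexokinases trap glucose by phosphorylating it, and they held both directions. *Hk3* (chr13:55005985-55021385, GRCm38) was at 40.7, 44.8, 139.6, 36.2 and 21.3 normalized counts in HRS legs and at 1.41, 1.57, 3.05, 1.76 and 2.77 in contralateral legs. Its lowest HRS leg, that of m866, lay above every PBS library. *Hk3* rose 18.2-fold (log2 fold change 4.19 ± 0.38 SE, adjusted p = 1.96e-06). *Hk1* (chr10:62268855-62379908), the form of most tissues, was at 54.4, 60.5, 86.2, 53.8 and 26.6 against 12.7, 17.2, 17.2, 16.1 and 21.9. It too separated the legs, and rose 3.08-fold (1.62 ± 0.23 SE, adjusted p = 6e-05). *Hk2* (chr6:82725025-82774454), the muscle form, was at 156, 123, 101, 112 and 321 against 337, 357, 347, 346 and 231. It was lower in 4 of 5 mice and fell 2.17-fold (-1.12 ± 0.25 SE, adjusted p = 0.0017). As levels per kilobase of exon, the median of *Hk3* was 0.479 in contralateral legs beside 58.0 for *Hk2*, and 11.1 in HRS legs beside 20.6. In the HRS-MBP libraries these levels were 31.0 for *Hk3* and 26.3 for *Hk2*.

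**Figure D2:**
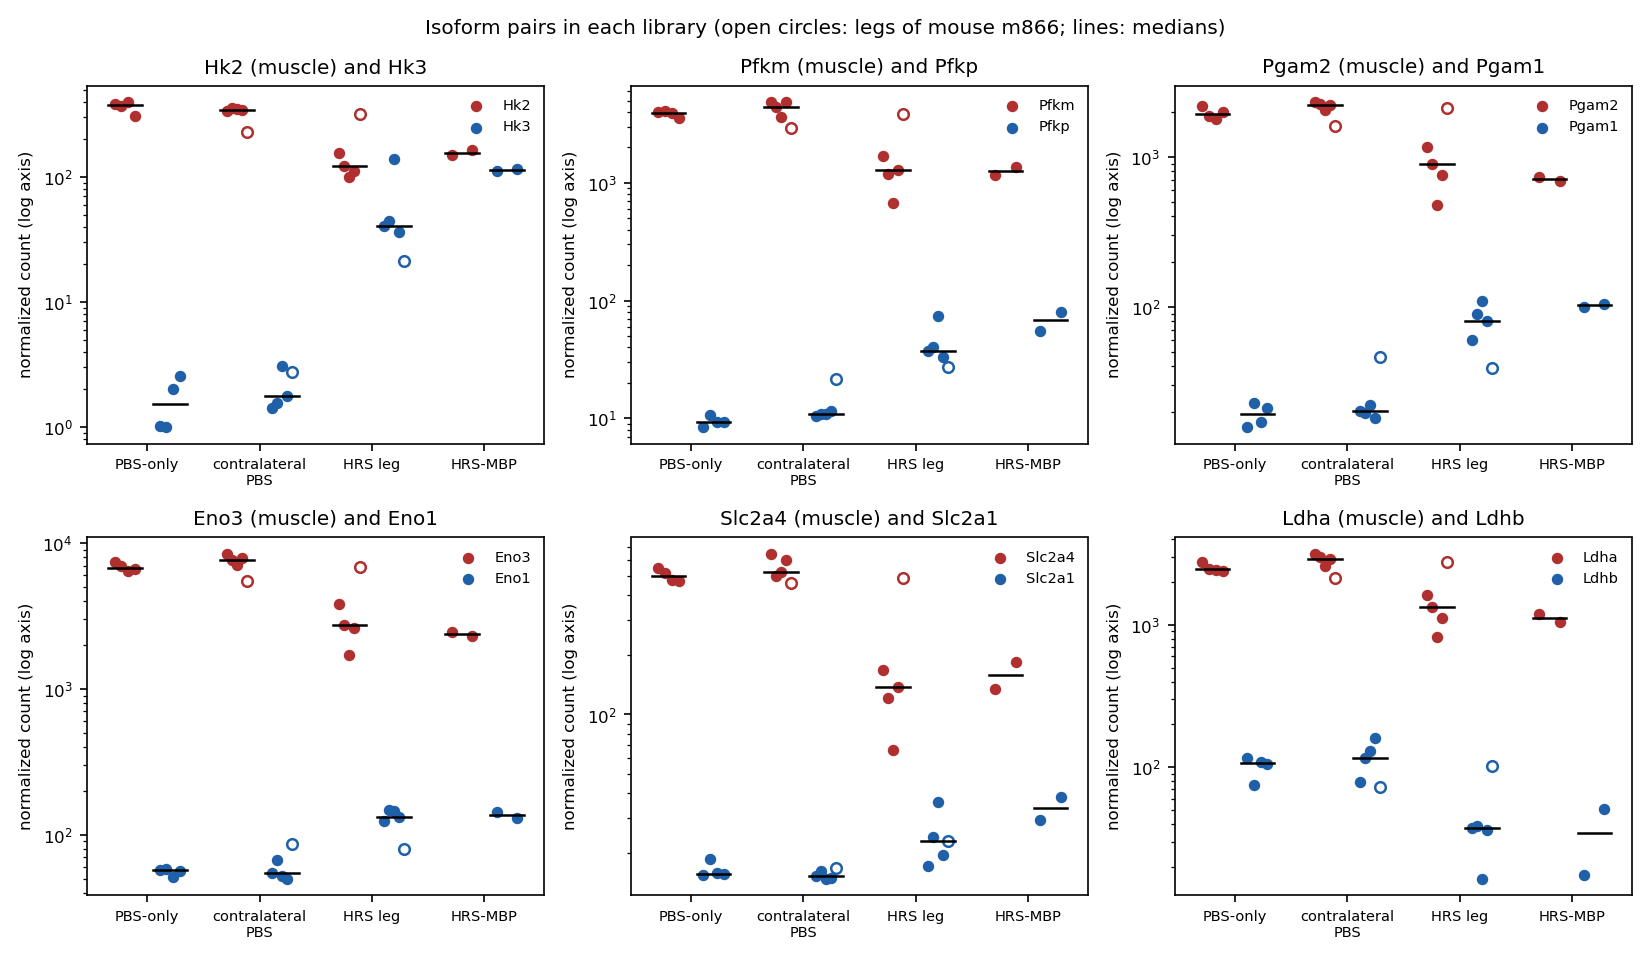
Normalized count (log axis) of a muscle isoform in red and another isoform in blue for each library of the 4 groups, with open circles for the legs of mouse m866 and lines for medians. *Hk3* lies at 21.3 to 139.6 in HRS legs and 1.41 to 3.05 in contralateral legs, and *Ldhb* is low in the same 4 HRS legs as *Ldha*.

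Phosphofructokinase commits sugar to glycolysis. Its muscle form *Pfkm* (chr15:98092589-98132451) was at 1676, 1184, 675, 1278 and 3805 normalized counts in HRS legs and at 4834, 4381, 3652, 4817 and 2909 in contralateral legs. Only m866 overlapped with PBS, and *Pfkm* fell 2.78-fold (-1.48 ± 0.35 SE, adjusted p = 0.00253). The platelet form *Pfkp* (chr13:6579768-6648777) was at 37.4, 40.1, 74.3, 33.3 and 27.2 against 10.4, 10.9, 10.9, 11.6 and 21.7. Every HRS leg lay above every contralateral leg, of which that of m866 was the highest, and *Pfkp* rose 3.10-fold (1.63 ± 0.24 SE, adjusted p = 8.64e-05). The liver form *Pfkl* ranged over 24.3 to 50.5 in HRS legs and 17.7 to 33.1 in contralateral legs, which overlapped, and rose 1.56-fold (adjusted p = 0.00972, and 0.0781 with the block).

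Aldolase splits the sugar into triose phosphates, and *Aldoa* is its muscle form. *Aldoa* ranged over 3459.6 to 15458 normalized counts in HRS legs and 12138 to 19227 in contralateral legs, and fell 2.46-fold (adjusted p = 0.0147, and 0.196 with the block). Its call was lost in 7 of 21 alternatives. *Aldoc*, the brain form, was scarce, at 0.890 to 2.82 against 0.0924 to 1.27. It rose 1.86-fold on the scale with 0.5 added (adjusted p = 0.0365, and 0.0986 with the block), and lost its call in 9 of 19 alternatives. *Gpi1* and *Tpi1*, isomerases of hexose and triose phosphates, fell 1.50-fold (adjusted p = 0.00993, and 0.0854 with the block) and 1.89-fold (adjusted p = 0.00598, and 0.0832 with the block).

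The bifunctional *Pfkfb* enzymes make and remove the sugar bisphosphate that activates phosphofructokinase. *Pfkfb1*, the form of muscle and liver, ranged over 3.45 to 40.7 normalized counts in HRS legs and 32.7 to 41.8 in contralateral legs, with m866 at the top of the HRS legs. It fell 3.45-fold (-1.79 ± 0.41 SE, adjusted p = 0.00213). *Pfkfb3*, a form known from proliferating and inflammatory cells, ranged over 64.5 to 132 against 80.7 to 182, was lower in the HRS leg of 5 of 5 mice (8.97% of tested genes were) and fell 1.85-fold (adjusted p = 0.0109). *Pfkfb4* fell 1.52-fold (adjusted p = 0.0364, and 0.0663 with the block). It lost its call in 9 of 20 alternatives, and *Pfkfb3* in 3 of 20. All 3 thus moved in 1 direction, although 2 of them stand in the class of other cells. The remaining gene of the family, *Pfkfb2*, is not among the 38 and had a log2 fold change of -0.08 (adjusted p = 0.586).

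In lower glycolysis, *Gapdh* and *Pgk1* encode the steps that yield the first NADH and ATP. *Gapdh*, often taken as a reference gene, ranged over 270.4 to 843 normalized counts in HRS legs and 675 to 1014 in contralateral legs. It fell 1.84-fold (adjusted p = 0.00519, and 0.0533 with the block). *Pgk1* ranged over 206 to 468 against 329 to 501 and fell 1.52-fold (adjusted p = 0.0135, and 0.0933 with the block), a call lost in 5 of 21 alternatives.

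Phosphoglycerate mutase moves the phosphate on the triose acid. *Pgam2* (chr11:5801640-5803733) was at 1171, 893, 475, 756 and 2117 normalized counts in HRS legs and at 2311, 2243, 2064, 2219 and 1603 in contralateral legs. *Pgam1* (chr19:41911923-41918660) was at 59.6, 89.0, 110.0, 80.5 and 38.9 against 20.1, 19.6, 22.1, 18.0 and 46.5. In m862 to m865 both genes separated the legs in opposite directions, and in m866 both went the other way. *Pgam2* fell 2.17-fold (-1.12 ± 0.30 SE, adjusted p = 0.00479, and 0.0594 with the block). *Pgam1* rose 2.97-fold (1.57 ± 0.27 SE, adjusted p = 0.000314). Median levels per kilobase were 2642 for *Pgam2* and 10.2 for *Pgam1* in contralateral legs, and 1064 and 40.6 in HRS legs.

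Enolase and pyruvate kinase complete the path to pyruvate. *Eno3* (chr11:70657202-70662513) ranged over 1715 to 6799 normalized counts in HRS legs and 5511 to 8438 in contralateral legs, and fell 2.28-fold (adjusted p = 0.00627, and 0.11 with the block). *Eno1*, the form of most cells, was at 125, 148, 145, 132 and 80.0 against 54.3, 66.9, 52.0, 49.9 and 86.8. Only m866 overlapped, and *Eno1* rose 2.02-fold (1.02 ± 0.17 SE, adjusted p = 0.000247). *Pkm*, whose muscle and other forms are splice products that a gene total cannot separate, fell 1.81-fold (adjusted p = 0.0127, and 0.147 with the block).

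Reads of several of these genes can be split with near-identical copies in the table. The copy *Eno1b* ranged over 90.3 to 189 normalized counts in HRS legs and 50.7 to 113 in contralateral legs, near the level of *Eno1*. *Pgk1-rs7* ranged over 169 to 376 and 299.7 to 462, near that of *Pgk1*, and *Aldoart1* over 93.1 to 384 and 315 to 585. The levels of *Aldoa*, *Eno1*, *Gapdh*, *Ldha*, *Ldhb*, *Pgam1*, *Pgk1* and *Tpi1* are uncertain to that extent. With the copies summed, all 8 kept their direction and their side of the threshold.

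Both lactate dehydrogenase genes fell. *Ldha*, the subunit of fast muscle, ranged over 821 to 2778 normalized counts in HRS legs and 2126 to 3157 in contralateral legs, and fell 1.93-fold (adjusted p = 0.00669, and 0.0836 with the block). *Ldhb*, the subunit of heart and slow fibres that leukocytes also use, was at 37.6, 38.5, 16.5, 36.4 and 103 against 78.7, 116, 131, 161 and 73.0. It was low in the HRS legs of m862 to m865 and fell 2.73-fold (-1.45 ± 0.39 SE, adjusted p = 0.00528). The slow-fibre myosin *Myh7* was at 50.0, 269.7, 26.7, 107 and 765 in the same HRS legs and at 283, 1098, 2322, 1254 and 484 in the contralateral legs. Its part in the values of *Ldhb* was not tested.

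The transporters and the kinases that restrain pyruvate oxidation moved the same way or did not pass. *Slc16a3*, the lactate exporter of fast fibres, ranged over 108 to 368 normalized counts in HRS legs and 306 to 486 in contralateral legs, and fell 2.12-fold (adjusted p = 0.0024). *Slc16a1*, the transporter of oxidative fibres and many other cells, fell 1.31-fold (adjusted p = 0.00815, 0.0519 with the block and 0.745 with totals free of mitochondrial genes). *Pdk1*, a kinase of pyruvate dehydrogenase, fell 1.54-fold (adjusted p = 0.00654, and 0.0607 with the block). *Pdk4*, the kinase induced by fasting, was widely spread, over 75.5 to 443 against 147 to 1168. Its log2 fold change was -1.26 ± 0.58 SE (adjusted p = 0.0714, and 0.0391 with the block), and -1.58 (adjusted p = 0.0229) without the HRS leg of m866.

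Of the 9 glycogen genes 7 fell, 1 rose and 1 did not pass, where 25.9% of tested genes fell and 35.1% rose. With the block 6 fell and 0 rose. The muscle phosphorylase *Pygm* (chr19:6384399-6398459) ranged over 1642 to 9192 normalized counts in HRS legs and 6787 to 11068 in contralateral legs, and fell 2.57-fold (adjusted p = 0.00807, and 0.11 with the block). Of the phosphorylase kinase subunits, *Phka1* fell 2.71-fold, *Phkb* 2.47-fold and *Phkg1* 2.34-fold (adjusted p = 0.00607, 0.0025 and 0.00348). The synthase *Gys1* fell 2.01-fold, the branching enzyme *Gbe1* 2.02-fold and the primer protein *Gyg* 2.14-fold (adjusted p = 0.00277, 0.00498 and 0.00163). *Gbe1* was lower in the HRS leg of 5 of 5 mice and the other 6 in 4 of 5.

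The calls of the liver and brain phosphorylases *Pygl* and *Pygb* depended on the libraries used. *Pygl* was at 17.2, 31.4, 41.5, 17.5 and 10.6 normalized counts in HRS legs and at 10.0, 7.76, 6.28, 7.35 and 50.9 in contralateral legs. *Pygb* was at 27.1, 38.9, 42.5, 35.2 and 19.9 against 12.6, 12.9, 13.9, 13.2 and 52.7. The contralateral leg of m866, which had the high adipocyte markers, was the highest of the 16 libraries for both genes, and the part of those markers was not tested. *Pygl* did not pass (0.86 ± 0.47 SE, adjusted p = 0.12), and *Pygb* rose 1.79-fold (adjusted p = 0.0433, and 0.15 with the block), a call lost in 11 of 20 alternatives. Without that library the log2 fold changes were 1.39 for *Pygl* (adjusted p = 0.00155) and 1.24 for *Pygb* (adjusted p = 0.000353).

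**Figure D3:**
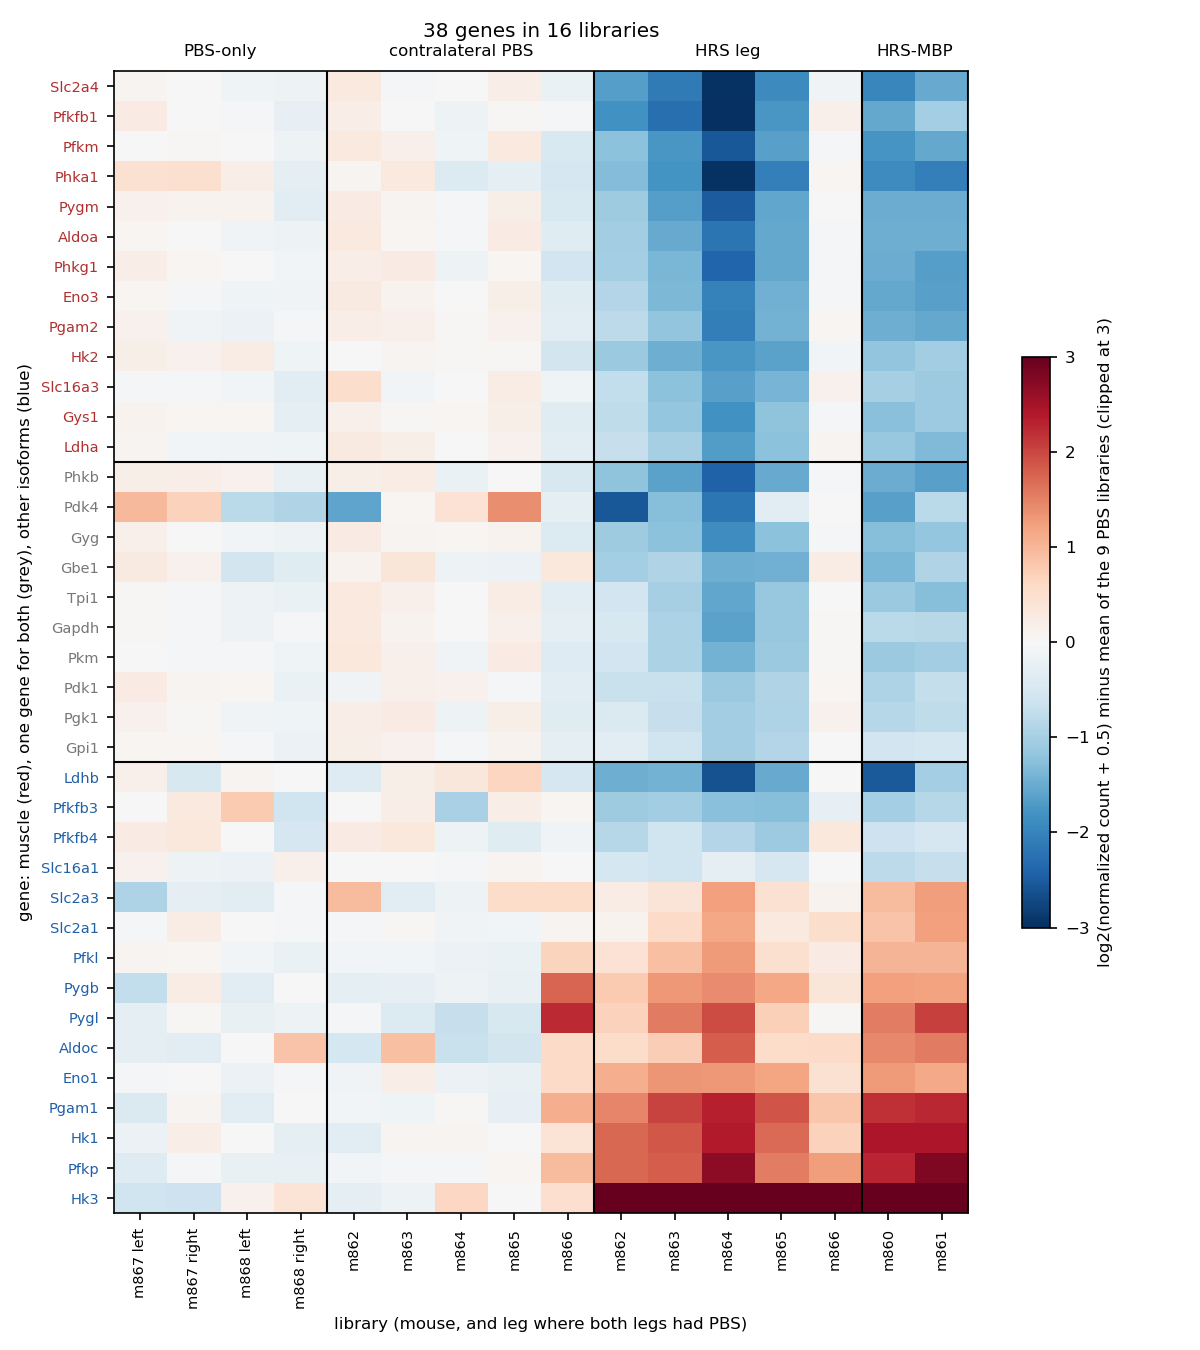
The 38 genes (vertical axis, by class) in the 16 libraries (horizontal axis), with color for log2 of the normalized count plus 0.5 minus the mean of the 9 PBS libraries, clipped at 3. The muscle isoforms are low in 4 of the 5 HRS legs and in both HRS-MBP libraries, and the contralateral leg of m866 is high for *Pygl* (50.9 normalized counts) and *Pygb* (52.7).

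Ratios of genes were taken within each library from normalized counts with 0.5 added, so those of scarce genes still depend on the scaling. Of 15 ratios of a muscle isoform to another isoform, 12 were lower in HRS legs than in contralateral legs by a two-sided exact permutation test at an unadjusted p under 0.05, and 11 after Benjamini-Hochberg adjustment over the 15. This test does not pair the legs, and its smallest p for 5 against 5 libraries is 0.00794. The paired exact sign-flip test over 5 mice cannot go below 0.0625. It reached that for *Hk2*/*Hk3*, *Slc2a4*/*Slc2a1* and *Pfkfb1*/*Pfkfb4* and was higher for the others. The 15 are not separate tests, as *Hk2*, *Pfkm*, *Slc2a4*, *Pygm* and *Pfkfb1* are each used more than once. No share over other gene pairs was computed. Relative to summed fibre markers 78.1% of all tested genes were higher in HRS legs by the permutation test. A lower ratio therefore does not by itself set these pairs apart. With that 0.5 in both genes, *Hk2*/*Hk3* was 0.723 to 14.8 in HRS legs and 70.6 to 176 in contralateral legs, without overlap and lower in 5 of 5 mice (mean log2 difference -5.30, exact p = 0.00794). *Slc2a4*/*Slc2a1* was 1.83 to 20.8 against 26.6 to 40.9, also without overlap (-2.36, exact p = 0.00794). *Pgam2*/*Pgam1* was 4.31 to 53.8 against 34.1 to 119.9, lower in 4 of 5 mice (-2.69, exact p = 0.0159). *Ldha*/*Ldhb* was the only one of the 15 with a higher mean in HRS legs (0.49, exact p = 0.0952). *Pygm*/*Pygl* and *Pfkfb1*/*Pfkfb3* also missed the threshold, each with an exact p of 0.0714.

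Since the fibre markers differed between the legs, each gene was also set against their sum, a measure added after the data were seen. That sum was 2.14-fold lower in HRS legs (exact permutation p = 0.0159). Per unit of it, the median log2 difference (0.5 added to each gene) was -0.13 for the 13 muscle isoforms, 0.20 for the 10 genes that serve both and 1.94 for the 15 other isoforms, where it was 1.17 over all tested genes. *Slc2a4* was at 2.46 to 4.55 per 1000 of the sum in HRS legs and 4.32 to 5.66 in contralateral legs (log2 difference -0.70, exact p = 0.0159). *Pfkm* was at 25.0 to 35.5 against 32.2 to 39.7 (-0.38, exact p = 0.0159). Both were lower per unit of fibre markers, as were *Aldoa* (-0.20), *Pygm* (-0.27) and *Eno3* (-0.10), 5 of 13 at an unadjusted exact p under 0.05 over 38 such tests, where 1.38% of tested genes were lower. The summed markers themselves fell unequally, *Mb* from a median of 1265 in contralateral legs to 704 in HRS legs and *Ryr1* from 3642 to 1226. Whether these isoforms fell more than single fibre markers was not tested. *Pfkfb1*, lower in 5 of 5 mice, had a difference of -0.69 (exact p = 0.0556). The other 7 muscle isoforms ran from -0.35 for *Phka1* to 0.14 for *Ldha* (exact p = 0.151 and 0.0794), with *Phkg1*, *Pgam2*, *Hk2*, *Slc16a3* and *Gys1* at -0.13, -0.02, -0.02, 0.01 and 0.09 (exact p = 0.175, 0.706, 0.913, 0.905 and 0.103). Of the other isoforms 11 of 15 were higher, and of the genes that serve both 6 of 10, among them *Pgk1* (0.49, exact p = 0.00794), where 78.1% of tested genes were.

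**Figure D4:**
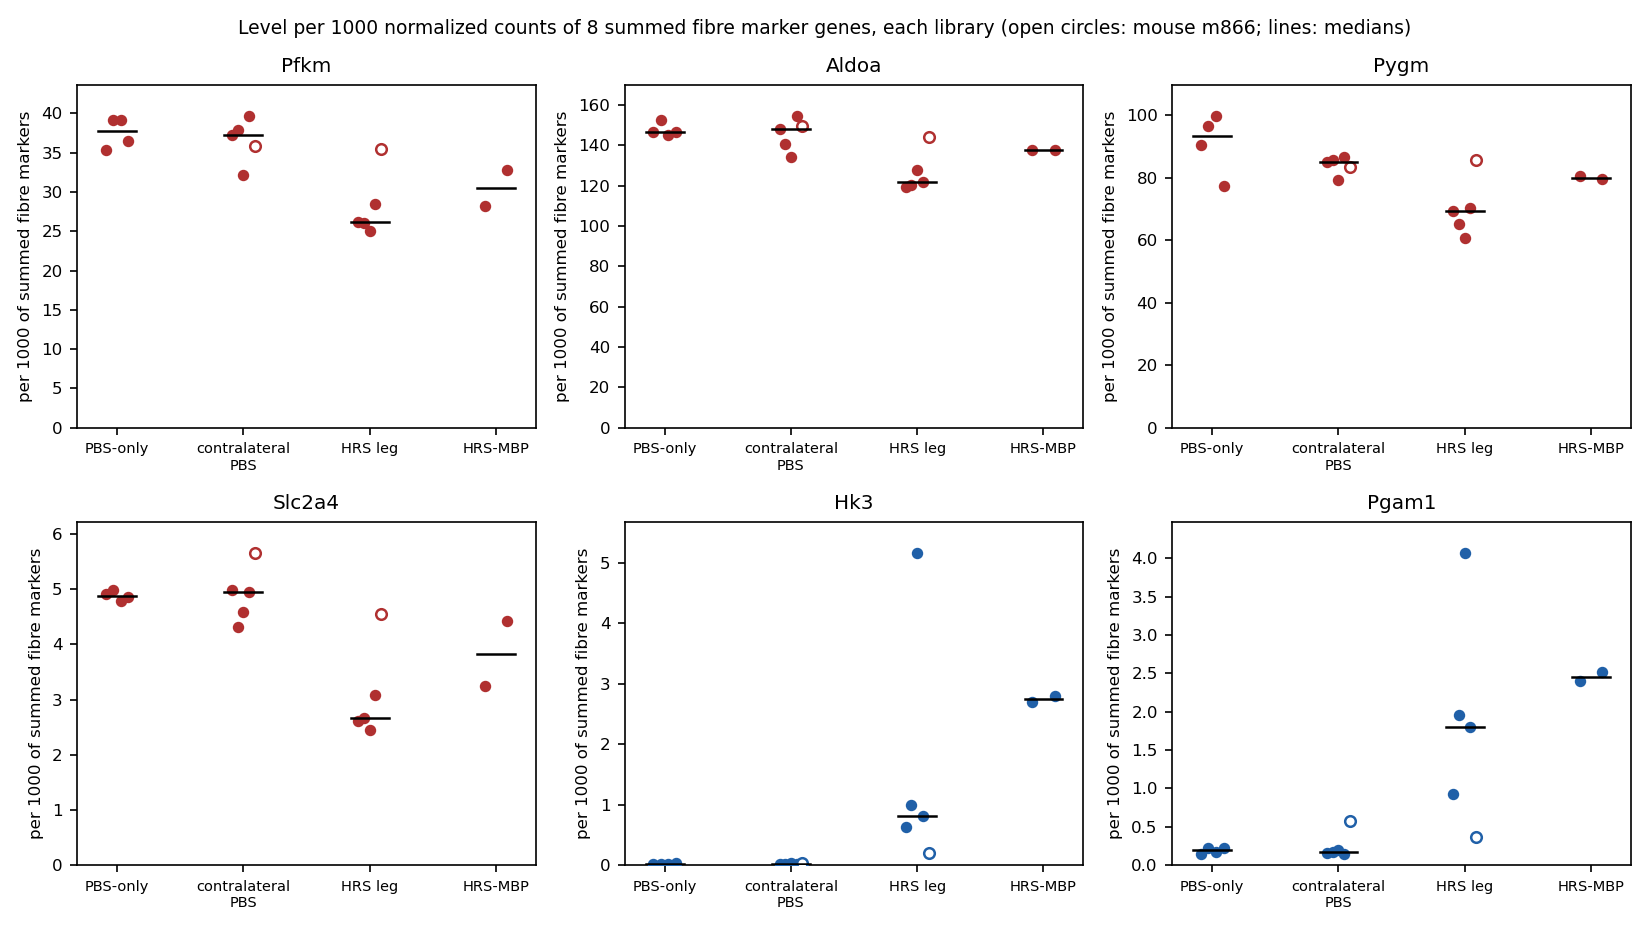
Level of 6 genes per 1000 normalized counts of the 8 summed fibre markers (vertical axis) for each library of the 4 groups, with open circles for mouse m866 and lines for medians. *Slc2a4* lies at 2.46 to 4.55 in HRS legs and 4.32 to 5.66 in contralateral legs, and *Pgam1* at 0.362 to 4.07 and 0.148 to 0.572.

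The comparison with PBS-only mice uses controls that had no HRS in either leg. In HRS legs 9 of the 38 genes were higher and 26 lower than in PBS-only legs by limma, where 38.1% and 22.6% of tested genes were. *Hk3* rose 22.6-fold (adjusted p = 1.79e-06), *Slc2a4* fell 3.23-fold (adjusted p = 0.00176) and *Phka1* fell 3.51-fold (adjusted p = 0.00229). *Slc2a3*, at 3.37 to 8.00 normalized counts in HRS legs and 1.42 to 3.03 in PBS-only legs, rose 1.83-fold (adjusted p = 0.0143). The HRS legs are those of the first comparison. Beyond a log2 fold change of 1 as well, 6 were higher and 14 lower, against 18.9% and 5.87% of tested genes. Taking the mean of both legs for m867 and for m868, 17 of the 38 genes changed, and without m867, 16 did, against 46.2% and 41.7% of tested genes.

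Between contralateral PBS legs and PBS-only legs limma found 0 of the 38 genes changed, where 0.00609% of tested genes were lower and 0.0% higher. At an unadjusted p under 0.05 there was 1 (5.5% of tested genes were), *Slc2a3* (log2 fold change 0.71, 95% confidence interval 0.11 to 1.30, adjusted p = 0.84). The log2 fold changes of the 38 ran from -0.37 to 0.71, and all 38 overlapped between the groups.

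The HRS-MBP mice and the PBS-only mice share no library with the comparison of legs. Their p-values and SEs are not separate from it, since the fit takes 1 estimate of the spread per gene from all 4 groups. In HRS-MBP libraries 11 of the 38 genes were higher and 22 lower, against 33.2% and 23.8% of tested genes, and 11 and 18 of these lay beyond a log2 fold change of 1, against 20.7% and 10.2%. *Hk3* was at 112 and 116 normalized counts in m860 and m861 and at 1.01, 0.995, 2.02 and 2.55 in the PBS-only legs, and rose 56.1-fold (adjusted p = 1.98e-06). *Pfkp* rose 6.79-fold, *Hk1* 5.55-fold and *Pgam1* 5.26-fold (adjusted p = 1.23e-05, 2.03e-05 and 0.000112). *Hk1* was at 88.9 and 89.1 normalized counts in m860 and m861 and at 14.4, 18.7, 16.5 and 13.5 in PBS-only legs. *Hk2* was at 149 and 165 against 382, 367, 396 and 308. These hexokinases did not overlap between the groups, but only 2 of the 38 genes did, so with 2 against 4 libraries this sets none apart. *Pfkp* was at 55.6 and 80.5 against 8.40, 10.7, 9.39 and 9.40. *Pfkm* was at 1168 and 1363 against 3959.6, 4049.6, 3927 and 3538, and both phosphofructokinases separated the groups as well. Of the 3 genes that did not pass between the legs, *Slc2a3* and *Pygl* rose here 2.81-fold and 3.88-fold (adjusted p = 0.00324 and 0.0172), while *Pdk4* had a log2 fold change of -1.21 (adjusted p = 0.203). The difference between the comparisons was not tested. All 13 muscle isoforms were lower in both HRS-MBP libraries than in any of the 9 PBS libraries, where 27.0% of tested genes were. By limma 12 of them fell, from *Phka1* at 4.50-fold (adjusted p = 0.00397) to *Slc16a3* at 1.87-fold (adjusted p = 0.0378). *Pfkfb1* had a log2 fold change of -1.27 (adjusted p = 0.0655). Without mouse m860, m861 or m867, 13, 19 and 18 of the 38 genes changed, against 37.4%, 38.6% and 43.3% of tested genes.

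**Figure D5:**
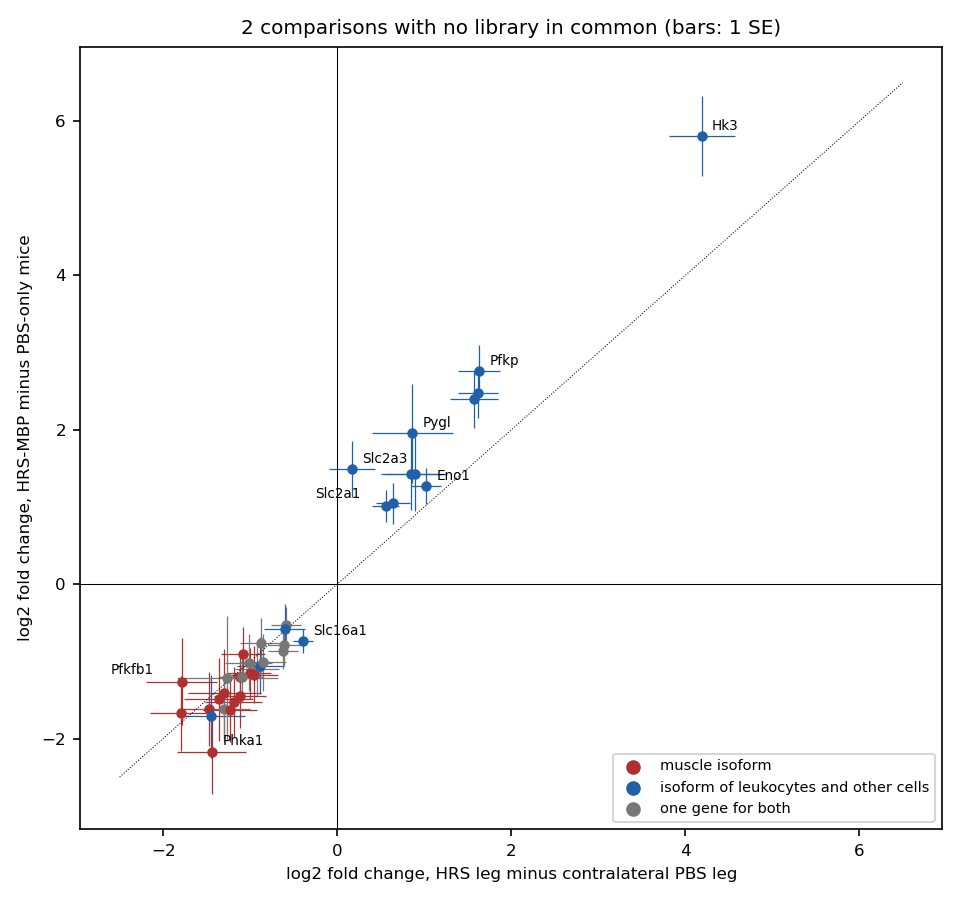
Log2 fold changes of the 38 genes in HRS legs against contralateral PBS legs (horizontal axis) and in HRS-MBP against PBS-only mice (vertical axis), with bars of 1 SE, a dotted line of equality and colors by class. *Hk3* lies at 4.19 and 5.81, *Slc2a3* at 0.17 and 1.49, and *Slc2a4* at -1.80 and -1.68.

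Set directly against HRS legs, the HRS-MBP libraries differed in 0 of the 38 genes by limma, where 0.426% of tested genes were higher and 0.134% lower, and in 5 at an unadjusted p under 0.05, as 14.4% of tested genes did. The widest difference was that of *Hk3* (log2 1.31, 95% confidence interval 0.25 to 2.38, adjusted p = 0.259), followed by *Pygl* (0.81, adjusted p = 0.566) and *Hk1* (0.75, adjusted p = 0.285). Macrophage marker sums were 4146 to 4512 in HRS-MBP libraries. In the HRS legs of m862 to m866 they were 2323, 3523, 5358, 2677 and 1078, so only that of m864 was higher. The part of these sums in the differences was not tested. Without mouse m864, 3 of the 38 genes differed, and 5.92% of tested genes.

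Further genes of these pathways, from written lists, were read between HRS and contralateral legs, where 35.1% of all tested genes rose and 25.9% fell. Of 17 tested genes of glycolysis and transport outside the 38, 6 rose and 7 fell. *Slc2a6*, a glucose transporter of leukocytes, rose by 4.02 on the log2 scale, from a mean of 0.470 to 18.1 normalized counts (adjusted p = 1.16e-06). *Emb*, a partner protein of monocarboxylate transporters, rose by 2.16 (adjusted p = 6.19e-05), and *Slc2a9*, *Eno2* and *Slc2a10* by 1.41, 1.38 and 1.03. *Tigar*, *Bpgm*, *Ldhd* and *Slc2a12* fell by 1.72, 1.30, 1.24 and 1.19 on the log2 scale. Of 18 further glycogen genes 12 fell and 2 rose. *Ppp1r3c* and *Ppp1r3a*, which target the phosphatase to glycogen, fell by 1.48 and 1.37 on the log2 scale (adjusted p = 0.00471 and 0.00304), *Epm2a*, *Gys2* and *Ugp2* fell by 1.36, 1.19 and 1.14, and *Pgm2* rose by 1.63 (adjusted p = 3.41e-05).

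Of 11 genes that bring pyruvate into mitochondria 8 fell and 1 rose. Both subunits of the mitochondrial pyruvate carrier fell, *Mpc1* by 1.11 and *Mpc2* by 1.29 on the log2 scale (adjusted p = 0.00143 and 0.00111). *Pdk2*, the common muscle kinase of pyruvate dehydrogenase, fell by 1.42, while its relative *Pdk3* rose by 2.08 (adjusted p = 0.00182 and 7.84e-05). Of 11 genes of gluconeogenesis and shuttles 10 fell and 1 rose, and *Pck1*, *Fbp2*, *Pcx*, *Gpd2* and *Got1* fell by 2.30, 2.03, 2.01, 1.51 and 1.33 on the log2 scale. Of 8 pentose phosphate genes 2 rose and 1 fell, with 0 beyond a log2 fold change of 1. Of 20 regulators 5 rose and 14 fell. *Hif1a*, the oxygen-sensing transcription factor, rose by 1.62 (adjusted p = 8.57e-05) and *Arrdc4* by 1.08, while *Egln1*, *Mlxipl*, *Prkaa2* and *Ppargc1a* fell by 1.29, 1.23, 1.17 and 1.12 on the log2 scale. Of 10 hypoxia-response genes 4 rose and 2 fell, the latter being *Bnip3* (-1.15, adjusted p = 0.00196) and *Vegfa* (-1.08, adjusted p = 0.000995).

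As levels per kilobase of exon in contralateral legs, the order of the 38 began with *Aldoa* at a median of 4396 and *Eno3* at 4383, then *Pygm* at 3078, *Pgam2* at 2642 and *Pfkm* at 1312. The ranges of *Aldoa*, *Eno3* and *Pygm* overlapped, as did those of *Pygm* and *Pgam2*. *Tpi1*, *Pkm* and *Ldha* followed at 972, 928 and 872, also with overlapping ranges, which reached into that of *Pfkm*. The lowest were *Hk3* at 0.479 and *Aldoc* at 0.0491. In HRS legs *Hk3* stood at 11.1 per kilobase, beside *Slc2a1* at 6.56 and *Hk1* at 6.38.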

How the data were processed

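Libraries were made from hamstring muscle by poly(A) selection with a directional kit and sequenced on 3 Illumina platforms, with the platform of each library not stated. The submitters' notes name STAR 2.7.8a, limma and the build GRCm39. The deposited coordinates start where GENCODE M21 (GRCm38) does for 99.4% of matched genes, so they are given as GRCm38. The authors deposited normalized counts per gene (a signal scaled between libraries by a method not given in the sources used here), with library totals of 726797 to 1252358. Totals were 726797 to 871400 in the HRS legs of m862 to m865, 1162004 in that of m866 and 805943 to 828943 in HRS-MBP libraries. PBS libraries had 958741 or more. Mitochondrial genes made up 3.41% to 6.29%, 11.14% and 5.94% to 6.98% of these totals, and 9.69% to 13.05% in PBS libraries. Of the low values 74.7% to 76.8% were whole multiples of 1 step (within 0.02 steps, up to 20 steps), so reads were not recovered and no count model was run. The depths implied by these steps are estimates.

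Values were analysed as log2(normalized count + 0.5) with limma 3.58.1 in R 4.3.3 (1 fit of 4 groups over 16 libraries, mean trend), for the 16414 genes with a mean of at least 0.5, with Benjamini-Hochberg adjustment over these genes. Fold changes are on that scale, which understates changes of low genes. The script was tested on simulated data. Exact permutation tests and summaries used Python 3.11.15, numpy 2.4.6, pandas 2.3.3 and scipy 1.17.1, and plots matplotlib 3.10.9.

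All 38 genes are named, with every library's value for those above a log2 fold change of 1 without overlap between legs, their muscle partner isoforms and (for the legs of m862 to m866) a few further genes chosen after their values were seen; from the other lists the called genes with the largest rises and falls are named, up to 5 each, except a few that are not reported here. The genes and lists were chosen with earlier results of these data known. Samples were grouped by their titles and treatment labels. HRS and contralateral legs of m862 to m866 are paired because they come from the same animal. Their deviations from the group means correlated at 0.119, 0.163, 0.0972, -0.0256 and -0.366. Alternatives were the pseudocount, the filter, the scaling, the variance prior, the mouse as a block or random effect, the groups fitted, averaged PBS-only legs and each mouse left out. Leaving out 1 leg of m866, summing copies and dividing by fibre markers were added after seeing the data.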

Additional observations from a re-analysis of the deposited data

Results flagged for a closer look

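Dixon's test for a single library far from the rest of its group was applied to each gene and each marker sum in the groups of 4 or 5 libraries, 144 groups of values in all, and marked 29. For independent and normal values chance marks about 1 in 20 such groups. The values here are not on a log scale and the groups share libraries, so that rate need not hold. Values are normalized counts, each followed by the range of the other libraries of its group.

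The HRS leg of m866 was marked for 8 genes, all high: *Slc2a4* at 488 against 66.4 to 167, *Hk2* at 321 against 101 to 156, *Pfkfb1* at 40.7 against 3.45 to 10.5, *Pfkfb3* at 132 against 64.5 to 76.5, *Pfkfb4* at 65.7 against 24.5 to 34.6, *Ldhb* at 103 against 16.5 to 38.5, *Gbe1* at 82.9 against 25.4 to 37.8 and *Gyg* at 301 against 84.5 to 146. Its values lay toward the PBS libraries for each of these.

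The contralateral PBS leg of m866 was marked for 6 genes: *Hk2* at 231 against 337 to 357, *Pfkl* at 33.1 against 17.7 to 19.5, *Pfkp* at 21.7 against 10.4 to 11.6, *Pgam1* at 46.5 against 18.0 to 22.1, *Pygl* at 50.9 against 6.28 to 10.0 and *Pygb* at 52.7 against 12.6 to 13.9. It was low for *Hk2* and high for the others. It was also marked for the adipocyte marker sum at 987 against 59.0 to 139.7 and the fibre type marker sum at 43576 against 70595 to 79929.8, high for the adipocyte sum and low for the sum of myosins.

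The HRS leg of m864 was marked for 4 genes, all high: *Slc2a3* at 8.00 against 3.37 to 4.49, *Hk3* at 139.6 against 21.3 to 44.8, *Pfkp* at 74.3 against 27.2 to 40.1 and *Aldoc* at 2.82 against 0.890 to 1.07. It was also marked for the B cell marker sum at 15.5 against 1.88 to 4.09. The contralateral leg of m864 was marked low for *Pfkfb3* at 80.7 against 158 to 182, and high for the T cell marker sum at 2.63 against 1.35 to 1.53 and the neutrophil marker sum at 3.46 against 0.996 to 1.26.

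Among PBS-only legs, the right leg of m868 was low for *Slc16a3* at 269 against 316 to 321, *Pygm* at 7508 against 10006 to 10135 and *Gys1* at 463 against 580.1 to 600.4. The right leg of m867 was high for *Slc2a1* at 18.6 against 15.4 to 15.8, and its left leg was low for the fibroblast marker sum at 797 against 1498 to 1547.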

How the results depend on the processing

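Between HRS and contralateral legs, 35 of the 38 genes changed, and 20 did with the mouse as a replicate block (6 higher, 14 lower). That block ended 16 calls, whose adjusted p-values stand beside the genes, and added *Pdk4*. The count of 21 genes also beyond a log2 fold change of 1 became 11 with quantile scaling (5 higher, 6 lower, against 12.8% and 9.94% of tested genes) and 13 with totals free of mitochondrial genes (7 higher, 6 lower, against 23.9% and 2.28%). These scalings shifted the median of all tested genes from 0.08 to -0.16 and 0.40, and the changed genes over all tested from 35.1% higher and 25.9% lower to 25.3% and 39.6% and to 51.4% and 14.2%, while the cause of the lower counts was not tested further. Leaving out each mouse gave 26 to 37 changed (47.3% to 70.2% of tested genes) and 13 to 30 beyond that fold (18.2% to 31.8%), the lowest of the latter without m864. For HRS legs against PBS-only legs, a mean over the legs of m867 and of m868 gave 17 changed in place of 35 (5 higher, 12 lower), quantile scaling gave 13 in place of 20 beyond a log2 fold change of 1 (5 higher and 8 lower, against 13.2% and 11% of tested genes), and leaving out each mouse gave 16 to 37 (41.7% to 69.9%) and 14 to 26 (20.6% to 31.1%). For HRS-MBP against PBS-only mice, quantile scaling gave 16 in place of 29 beyond that fold (7 higher and 9 lower, against 15.3% and 17.1%), and leaving out each mouse gave 13 to 26 changed (37.4% to 50.1%) and 12 to 21 beyond it (26.2% to 30%). For HRS-MBP against HRS legs the ranges were 0 to 3 (0.152% to 5.92%) and 0 to 1 (0.152% to 3.42%), and for the PBS groups 0 to 0 (0% to 0.0183% for both). *Slc2a3* turned to -0.25 with quantile scaling, and ran from -0.13 (without m864) to 0.39 with each mouse left out, and no other of the 38 genes changed sign between the legs under the alternatives run.
For the isoform ratios, leaving out each mouse moved the mean log2 differences over these ranges: *Aldoa*/*Aldoc* -2.83 to -1.58, *Eno3*/*Eno1* -2.87 to -1.88, *Hk2*/*Hk1* -3.47 to -2.41, *Hk2*/*Hk3* -6.07 to -4.86, *Ldha*/*Ldhb* 0.30 to 0.64, *Pfkfb1*/*Pfkfb3* -1.26 to -0.44, *Pfkfb1*/*Pfkfb4* -1.42 to -0.89, *Pfkm*/*Pfkl* -2.85 to -1.68, *Pfkm*/*Pfkp* -3.90 to -2.59, *Pgam2*/*Pgam1* -3.52 to -2.26, *Pygm*/*Pygb* -3.21 to -1.75, *Pygm*/*Pygl* -3.44 to -1.51, *Slc16a3*/*Slc16a1* -0.93 to -0.51, *Slc2a4*/*Slc2a1* -2.86 to -1.89 and *Slc2a4*/*Slc2a3* -2.59 to -1.37. With 4 against 4 legs the smallest exact p is 0.0286, and 9 or 10 of the 15 lost the call without m862, m863, m864 or m865, while 2 more passed without m866. A smaller and a larger pseudocount altered no call of a ratio. The HRS-MBP group holds 2 mice and the PBS-only group 2, and low genes such as *Aldoc* lie near the level of a few reads in the shallowest libraries.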

Other observations

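Myosin heavy chain genes of the fibre types were uneven among contralateral PBS legs. *Myh7*, the slow myosin, was at 283, 1098, 2322, 1254 and 484 normalized counts in the contralateral legs of m862 to m866, and *Ldhb* at 78.7, 116, 131, 161 and 73.0 in the same legs. *Myh2*, the myosin of fast oxidative fibres, was at 855, 2491, 3696, 2624 and 1184 there. For all 3 genes the legs of m862 and m866 were the lowest of the 5.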
